A study of Rattus norvegicus with 6 samples.

Results

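Interferon-response genes and interferon regulatory factors (IRFs) were examined in freshly sorted mural cells of the rat cortex. They were taken as a list of 42 gene symbols (receptors, transcription factors, RNA sensors, the ISG15 system, antiviral effectors and other induced genes). Of these, 41 have a row among the 14607 genes of the table, and Xaf1 has none. The samples were 3 of vascular smooth muscle cells (VSMCs) and 3 of mid-capillary pericytes (mcPCs) from male Sprague-Dawley rats of 4 to 5 weeks, with cortices of several animals pooled for each isolation. VSMCs came from arterioles held back on a filter after mild digestion. These arterioles were dissociated by a further, harsher digestion with Liberase TM and trypsin, which the filtrate did not receive. Their cells were depleted of CD31- and CD11b-labelled cells, and the VSMCs were then sorted positively with a lectin. The mcPCs came from the filtrate and were what remained after removal of cells labelled for CD31, CD11b, GLAST and O4, so that they are defined by exclusion. The labels name the samples by DN, DL and DK in both cell types. The values used here are the authors' means for each cell type over its 3 samples, without a value per sample. No spread between isolations was computed from these means and no test was run on them, the authors' own test columns were not used, and intervals below cover counting error only.

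Interferons are secreted by infected or alarmed cells and bind paired receptor chains, IFNAR1 with IFNAR2 for type I and IFNGR1 with IFNGR2 for interferon gamma. Janus kinases bound to these chains phosphorylate STAT proteins. STAT proteins join IRF9 to bind the interferon-stimulated response element (ISRE), whereas STAT dimers bind the gamma-activated sequence (GAS). The genes that follow encode proteins that sense, cut or trap viral components, together with IRFs that feed the loop, and many of them have a basal level in cells that have met no virus.

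Sequencing depth, summed over genes, was 62.0 M estimated reads for a VSMC sample and 48.0 M for one of mcPCs. The cell type labels were set beside marker genes. All 8 smooth muscle markers, among them Acta2 and Myh11, were at least 2-fold higher in VSMCs, and all 7 pericyte markers, among them Kcnj8 and Abcc9, in mcPCs. The authors name many of these markers as specific from these same data, so the outcome is not an independent check of the labels. The mcPC means also carried genes of other cells. Erythrocyte genes took 39.9% of mcPC reads against 0.228% of VSMC reads. The summed level of 12 blood leukocyte genes was 298 TPM (a share of the library corrected for transcript length) in mcPCs and 7.06 TPM in VSMCs. The microglia and macrophage list gave 223 against 36.2 TPM. The erythrocyte share lowers every other TPM of mcPCs, and the median gene of the table had a log2 ratio of TPM, mcPC over VSMC, of -1.72. Cell types were therefore compared on the authors' normalized counts, for which that median was 0.01, and a gene was called different at a ratio of at least 2-fold. TPM served to set genes beside each other within a cell type.

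More of these genes were higher in mcPCs than in VSMCs on normalized counts. A ratio of at least 2-fold in favour of mcPCs was found for 21 of the 41 genes, or 51.2%, where 21.6% of all genes of the table passed the same limit. Only Irf1 was at least 2-fold higher in VSMCs, 1 gene of 41, beside 13.8% of the table. The other 19 genes lay between these limits. The median log2 ratio was 1.09, against 0.01 over all genes, and 37 of 41 genes had a ratio above 0, against 50.7% of the table. On the uncorrected TPM ratio the split was 10 genes at least 2-fold higher in mcPCs and 16 in VSMCs, and the median turned to -0.70. In such bulk samples fewer cells of a type and less RNA per cell cannot be told apart.

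A comparison of ranks by TPM is not affected by a factor common to all genes of a cell type. It rests on the same samples and is not a separate observation. When each gene was placed among the 14607 genes by its TPM, 37 of the 41 genes stood at a higher percentile in mcPCs than in VSMCs, where 46.5% of the table did. Rsad2 went from percentile 12.2 in VSMCs to 92.6 in mcPCs, Bst2 from 32.2 to 92.8 and Irf7 from 29.5 to 91.3. Irf1 stood at percentile 93.1 in VSMCs and 74.5 in mcPCs. By TPM itself 13 of the 41 genes, or 31.7%, were higher in mcPCs, against 13.7% of the table.

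**Figure D1:**
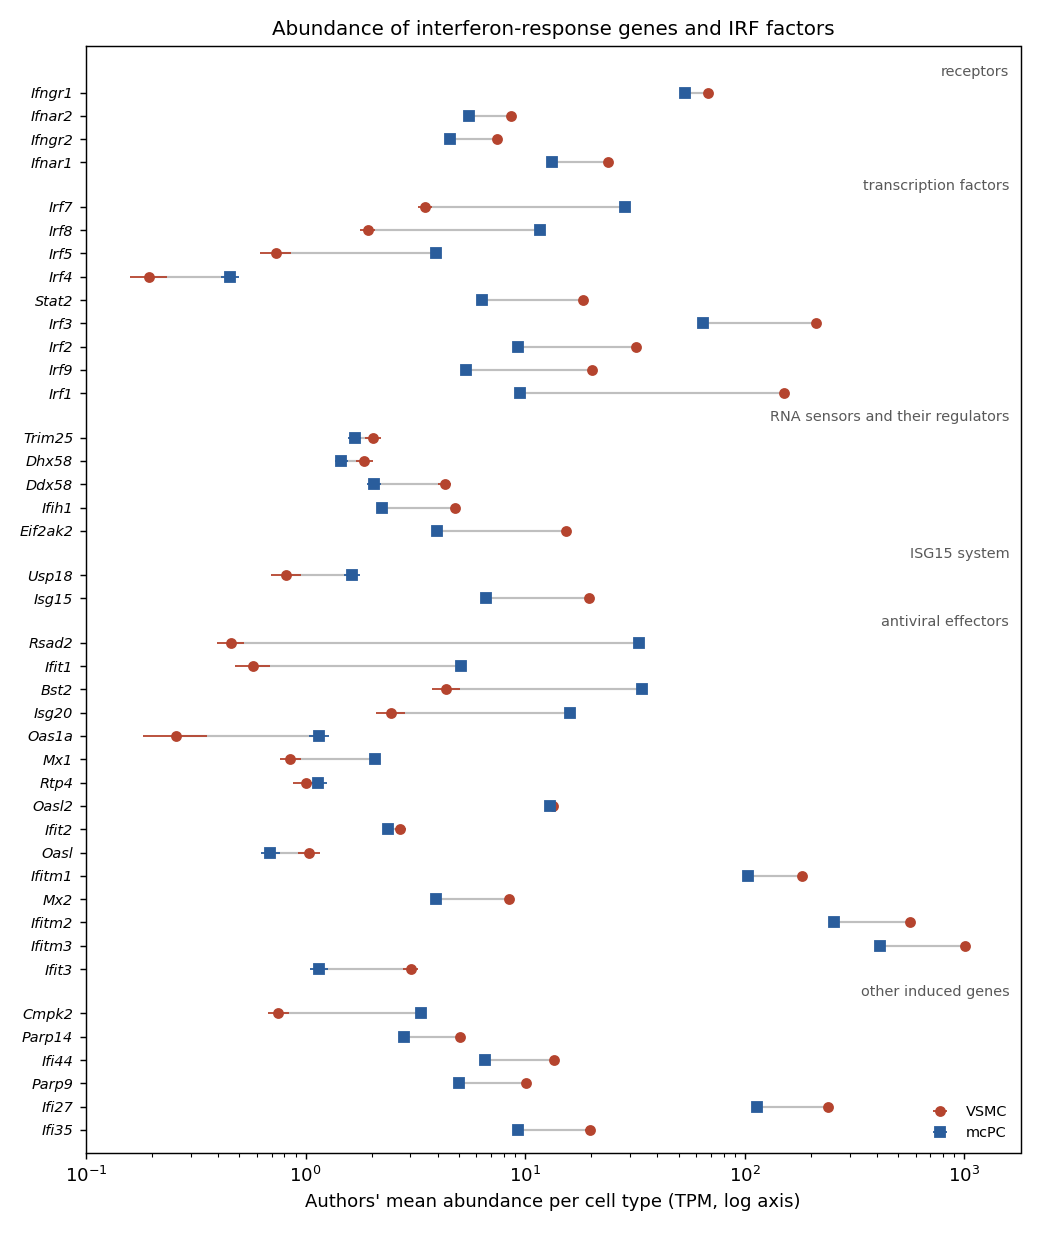
Abundance of the 41 genes in VSMCs (circles) and mcPCs (squares), as the authors' mean TPM on a log axis, grouped by role, with bars for the 95% Poisson counting interval. Erythrocyte genes hold 66.3% of mcPC TPM, and circles lie to the right for most genes, whereas Rsad2 (0.457 and 33.0 TPM), Irf7 (3.51 and 28.5 TPM) and Bst2 (4.38 and 33.9 TPM) lie far to the right in mcPCs.

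Among the transcription factors, which bind ISRE-type sequences or recruit STATs to them, 4 of 9 were at least 2-fold higher in mcPCs and 1 in VSMCs. These shares of 44.4% and 11.1% stand beside 21.6% and 13.8% of the table. Irf7, which amplifies type I interferon production, had 179 normalized counts in VSMCs and 5296 in mcPCs, a ratio of 29.4-fold (log2 ratio 4.88, 95% counting interval 4.77 to 4.99). Irf8, a factor known best from myeloid and lymphoid cells, had 146 and 3020 normalized counts (log2 ratio 4.36). Irf5, which acts downstream of Toll-like receptors, had 36.8 and 691 normalized counts (log2 ratio 4.20). Irf4, a lymphocyte factor, was the scarcest of all 41 genes in both cell types, at 0.194 TPM in VSMCs and 0.455 in mcPCs (log2 ratio of normalized counts 2.92). Irf4 is thus a large ratio on a small base of 109 reads over the 3 VSMC samples.

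The basal factors were alike in both cell types. Irf3, the constitutive factor activated by the RNA sensors, had 7543 normalized counts in VSMCs and 7978 in mcPCs (log2 ratio 0.08). It was an abundant gene of the list in both, at 211 TPM in VSMCs and 64.5 in mcPCs. Stat2 had a log2 ratio of 0.25, Irf2, a repressor of many IRF1 targets, of -0.05, and Irf9, the DNA-binding partner of the STATs, of -0.11. All 4 ratios were below 0 when counts were scaled to the same total, and below -1 on the TPM ratio. With counts scaled without erythrocyte genes all 4 were above 0, at 0.28 for Irf2 and 0.07 for Irf9, so that none of these 4 genes has a direction that holds on every scale.

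Irf1, a primary response gene of interferon gamma and also of inflammatory cytokines, went the other way. It had 8050 normalized counts in VSMCs and 1710 in mcPCs, a level 4.70-fold higher in VSMCs (log2 ratio -2.23, 95% counting interval -2.28 to -2.19). Its abundance was 151 TPM in VSMCs and 9.45 in mcPCs. The sign and the call held on all 7 scales tried, with log2 ratios between -3.99 and -2.03, though all scales rest on the same samples. Only VSMCs went through the harsher digestion and the positive sort. Cell type and handling therefore cannot be told apart for Irf1 or for the other genes compared here. By TPM, Irf1 had rank 6 of the 41 genes in VSMCs and rank 14 in mcPCs.

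All 4 receptor chains were present in both cell types, and 3 of them were at least 2-fold higher in mcPCs, beside 21.6% of the table. Ifngr1, the ligand-binding chain for interferon gamma, was the most abundant, with 67.8 TPM in VSMCs and 53.7 in mcPCs, and its normalized counts were 3308 and 9108 (log2 ratio 1.46). Its partner Ifngr2 had 518 and 1104 normalized counts (log2 ratio 1.09). Of the type I chains, Ifnar2 had 395 and 887 normalized counts (log2 ratio 1.17). Ifnar1 had 2552 and 5032 and stayed just under the limit, with a log2 ratio of 0.98 and a counting interval of 0.94 to 1.02. On the uncorrected TPM ratio all 4 chains were lower in mcPCs, with log2 ratios between -0.84 and -0.34. In TPM the order of the chains was the same in both cell types, Ifngr1 above Ifnar1, Ifnar2 and Ifngr2.

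The antiviral effectors held the largest ratios, with a median log2 ratio of 1.76. Of these, 10 of 15 were at least 2-fold higher in mcPCs and none in VSMCs, beside 21.6% and 13.8% of the table. Rsad2 encodes viperin, an enzyme that makes a chain-terminating nucleotide. It had 45.7 normalized counts in VSMCs and 11999 in mcPCs, a ratio of 257-fold (log2 ratio 8.01, 95% counting interval 7.80 to 8.22). Behind these means were 191 reads over the 3 VSMC samples and 25341 over the 3 mcPC samples. Only 0.457 TPM were found in VSMCs, against 33.0 TPM in mcPCs. Its log2 ratio was higher than that of 99.7% of the genes of the table, and was 5.89 on the TPM ratio, the lowest of 7 scales. Cmpk2, a mitochondrial nucleotide kinase that supplies the substrate of viperin and lies next to Rsad2 in the RefSeq gene order, had 78.8 and 1264 normalized counts (log2 ratio 3.99).

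Bst2, or tetherin, which holds budding virions on the cell surface, had 47.2 normalized counts in VSMCs and 1244 in mcPCs (log2 ratio 4.69). Isg20, an exonuclease of single-stranded RNA, had 42.2 and 1013 (log2 ratio 4.55). In mcPCs these genes were among the more abundant of the list, at 33.9 TPM for Bst2 and 16.1 TPM for Isg20, against 4.38 and 2.45 TPM in VSMCs. The counting intervals of Bst2 (32.7 to 35.2 TPM) and Rsad2 (32.6 to 33.4 TPM) overlap in mcPCs, so their order there is not resolved. Mx1, a dynamin-like GTPase, had 76.9 and 628 normalized counts (log2 ratio 3.01), whereas its relative Mx2 had 571 and 926 (log2 ratio 0.70). Mx2 was the more abundant of the pair in both cell types, at 8.43 TPM in VSMCs and 3.91 in mcPCs, against 0.854 and 2.06 TPM for Mx1.

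Members of the other effector families differed from each other as well. In the IFIT family, which binds viral RNA ends, Ifit1 had 31.0 normalized counts in VSMCs and 975 in mcPCs (log2 ratio 4.93). Ifit2 had 250 and 786 (log2 ratio 1.65) and Ifit3 had 160 and 209 (log2 ratio 0.39). The log2 ratio of Ifit1 was 2.94 or more on all 7 scales, whereas that of Ifit2 turned to -0.18 on the TPM ratio, and Ifit3 turned negative on that ratio and on counts scaled to the same total. Ifit2 and Ifit3 are next to each other and close to Ifit1 in the RefSeq gene order. Shared reads matter here, since the reads of all 3 IFIT genes were not whole numbers, as happens when Salmon divides reads between similar transcripts.

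The 2',5'-oligoadenylate synthetase family differs in level and in ratio, and its active members switch on RNase L. Oas1a had 8.40 normalized counts in VSMCs and 156 in mcPCs (log2 ratio 4.06, 95% counting interval 3.57 to 4.59). It rests on 37.4 reads over the 3 VSMC samples, the fewest of any of the 41 genes, and its mean effective length was 21.8% greater in mcPCs. Oasl2 was far more abundant, at 13.3 TPM in VSMCs and 13.0 in mcPCs, with 995 and 3376 normalized counts (log2 ratio 1.76). Oasl had 76.3 and 173 normalized counts (log2 ratio 1.17), and its counting interval of 0.95 to 1.39 includes the 2-fold limit. Rtp4, a chaperone of receptor transport that interferon induces, had 49.8 and 196 (log2 ratio 1.96). On the TPM ratio Oasl2 and Oasl turned to log2 ratios of -0.04 and -0.53.

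The IFITM proteins, which sit in membranes and hinder virus entry, were the abundant part of the list. Ifitm3 had 1005 TPM in VSMCs and 414 in mcPCs, Ifitm2 had 564 and 255 TPM, and Ifitm1 had 182 and 104 TPM. Together the 3 genes held 65.5% of the summed TPM of the list in VSMCs and 61.2% in mcPCs. None of them reached a 2-fold ratio. Normalized counts gave log2 ratios of 0.98 for Ifitm1, 0.68 for Ifitm2 and 0.55 for Ifitm3, all of which fell below 0 on the TPM ratio, and that of Ifitm3 was -0.03 on counts scaled to the same total. They lie side by side in the RefSeq gene order, and reads of all 3 were divided between transcripts.

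**Figure D2:**
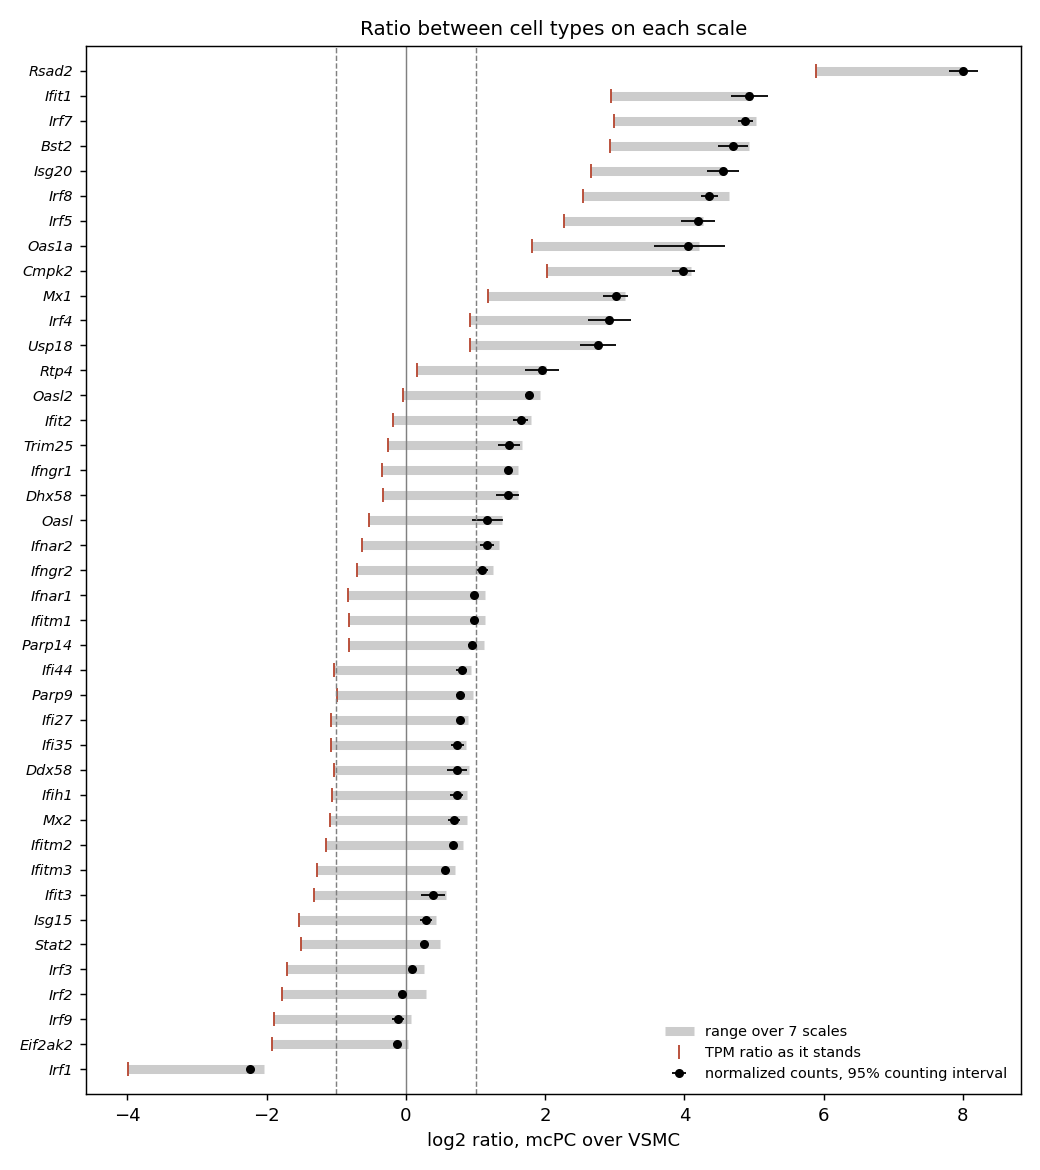
Log2 ratio, mcPC over VSMC, of each of the 41 genes from the authors' mean normalized counts (points, with 95% counting intervals), the range over 7 scales (grey bars) and the uncorrected TPM ratio (ticks). Dashed lines mark 2-fold; 10 genes from Rsad2 to Mx1 stay above the upper line and Irf1 stays below the lower line on every scale, whereas the sign of the genes from Oasl2 to Irf3 changes on the TPM ratio.

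Of the 5 RNA sensors and their regulators, 2 (Trim25 and Dhx58) were at least 2-fold higher in mcPCs, beside 21.6% of the table, and 3 lay between the limits. Trim25, a ubiquitin ligase known for its action on RIG-I, had 131 normalized counts in VSMCs and 366 in mcPCs (log2 ratio 1.48). Dhx58, which encodes LGP2, had 130 and 359 (log2 ratio 1.46). Ddx58, which encodes RIG-I itself, had 198 and 329 (log2 ratio 0.73) and Ifih1, which encodes MDA5, had 511 and 847 (log2 ratio 0.73). Eif2ak2, the double-stranded RNA-activated kinase PKR, had 1585 and 1452 (log2 ratio -0.13). In TPM it was the most abundant of these sensors in both cell types, with 15.3 TPM in VSMCs and 3.95 in mcPCs. On the TPM ratio all 5 were lower in mcPCs.

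Isg15 and Usp18, the ubiquitin-like modifier and the protease that removes it and damps the receptor, did not go together. Isg15 had 625 normalized counts in VSMCs and 764 in mcPCs (log2 ratio 0.29), and this sign turned both with counts brought to 1 total (-0.29) and with TPM. Usp18 had 36.5 and 253 normalized counts (log2 ratio 2.76, and 0.92 on the TPM ratio). Isg15 nevertheless remained the more abundant, at 19.5 against 0.817 TPM in VSMCs and 6.66 against 1.63 TPM in mcPCs.

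Among the other induced genes only Cmpk2 passed the limit, 1 of 6 or 16.7%, which is no more than the 21.6% of the table. Parp14 and Parp9, ADP-ribosyltransferases of the PARP family that lie close to each other in the RefSeq gene order, had log2 ratios of 0.95 and 0.78. Ifi44 had 0.80, Ifi27 had 0.78 and Ifi35 had 0.74. Ifi27 was abundant, with 239 TPM in VSMCs and 114 in mcPCs, the third of the 41 genes in both. These 5 genes had negative log2 ratios on the TPM ratio, between -1.08 and -0.82. Around the limit itself, Ifngr2 (1.09) was the lowest gene counted as at least 2-fold higher, and Ifnar1 and Ifitm1 (both 0.98) were the highest not counted.

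The level in VSMCs is the denominator of the ratio, and genes scarce there leaned to mcPCs. The part of the denominator and that of transcripts from other cells in this lean were not tested. Genes under 0.8 TPM in VSMCs are mostly higher in mcPCs throughout the table, since 65.7% of 2389 such genes passed the 2-fold limit in mcPCs, against 13.0% of the 12218 genes above that level. The authors set this limit as a filter because endothelial transcripts were more abundant in mcPCs, and left genes under it out of their final dataset. Rsad2, Ifit1, Irf5, Oas1a, Cmpk2 and Irf4 belong to this scarce class and so fall outside that dataset. Of the 35 genes of the list at or above 0.8 TPM, 15 were at least 2-fold higher in mcPCs, among them Irf7, Bst2, Isg20 and Irf8.

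**Figure D3:**
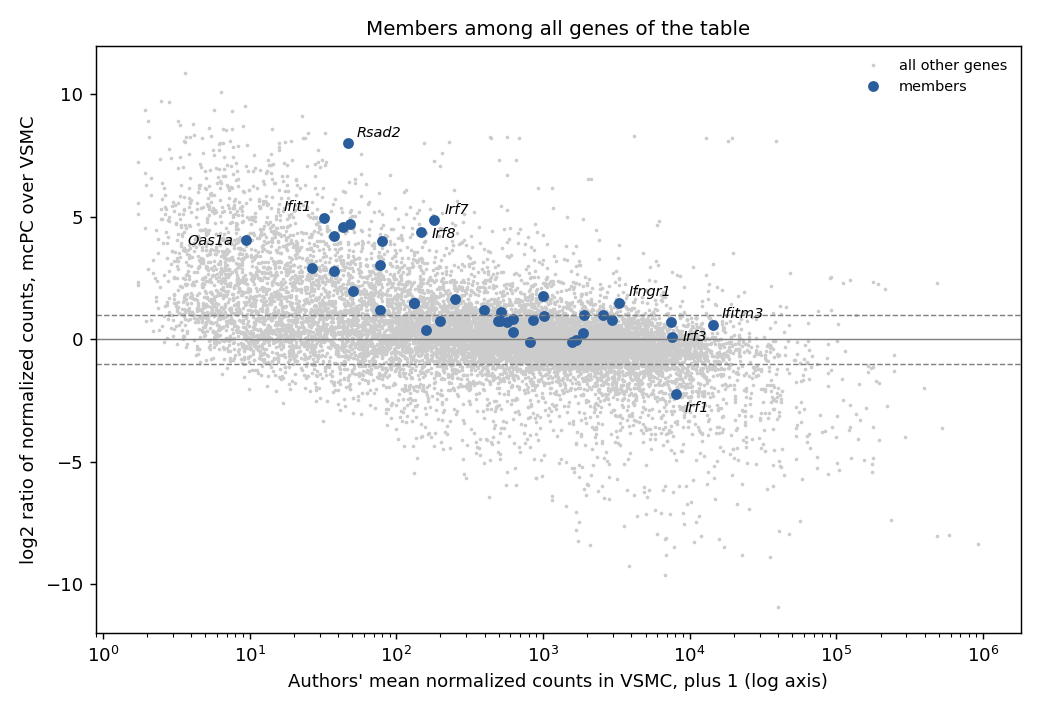
Log2 ratio of normalized counts, mcPC over VSMC, against the authors' mean normalized counts in VSMCs plus 1 (log axis), for the 41 genes (large points) and all other genes of the table (small points). Ratios of the whole table are higher at low counts; Rsad2 (8.01) has the highest ratio of the list, followed by Ifit1 (4.93) and Irf7 (4.88), and Irf1 (-2.23) is the only gene of the list below the lower 2-fold line.

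The promoters of these genes were searched because many of them are known as direct targets of the STAT and IRF complexes. RefSeq windows of assembly GRCr8, from 250 bases before to 50 bases after the annotated start, matched 31 of the 41 genes by symbol. An ISRE-like motif was defined as GAAANNGAAA on either strand, that is TTTCNNTTTC on the other, and a GAS-like motif as TTCNNNGAA, which reads the same on both. A match describes letters only. The ISRE-like motif was found in 14 of 31 windows, or 45.2%, and in 3.77% of all 27457 promoter windows. The GAS-like motif was found in 8 of 31, or 25.8%, and in 8.68% of all windows. The matches shown are those of genes with the largest ratios in favour of mcPCs, of Ifitm3 and Ifih1 as genes with ratios under 2-fold, and of Irf1, each written 5' to 3' on the strand of the gene with the motif in capitals. ISRE-like matches come first, then GAS-like matches.
Rsad2 ISRE-like: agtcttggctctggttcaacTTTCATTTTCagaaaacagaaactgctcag
Irf7 ISRE-like: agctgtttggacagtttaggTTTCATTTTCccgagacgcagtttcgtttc
Bst2 ISRE-like: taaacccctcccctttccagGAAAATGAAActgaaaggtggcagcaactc
Isg20 ISRE-like: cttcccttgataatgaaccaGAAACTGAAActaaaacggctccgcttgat
Oas1a ISRE-like: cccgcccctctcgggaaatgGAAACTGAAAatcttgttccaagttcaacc
Ifitm3 ISRE-like: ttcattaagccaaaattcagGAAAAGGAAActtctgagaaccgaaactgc
Ifih1 ISRE-like: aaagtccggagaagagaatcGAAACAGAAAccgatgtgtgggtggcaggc
Irf8 GAS-like: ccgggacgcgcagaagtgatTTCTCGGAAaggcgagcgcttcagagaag
Irf1 GAS-like: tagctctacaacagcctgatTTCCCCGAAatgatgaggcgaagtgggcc

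Most of these matches lay within 150 bases before the annotated start. That of Rsad2 (window chr6:48788238-48788287, minus strand) covers bases 147 to 138 before the start, and that of Irf7 (chr1:205800063-205800112, minus strand) bases 69 to 60. The same 10 letters form the match in both, on the strand opposite to the gene. The Bst2 match (chr16:18255069-18255118, minus strand) covers bases 131 to 122, is followed by an overlapping second match and shares letters with a GAS-like match. Those of Isg20 (chr1:142239947-142239996, plus strand) and Oas1a (chr12:41330411-41330460, plus strand) cover bases 92 to 83 and 35 to 26. For Ifitm3 (chr1:205541773-205541822, minus strand) they are bases 44 to 35, and for Ifih1 (chr3:67683998-67684047, minus strand) bases 59 to 50 in RefSeq. The GAS-like match of Irf1 (chr10:38417773-38417821, plus strand) covers bases 142 to 134, and the first of a pair in Irf8 (chr19:65699084-65699132, plus strand) bases 180 to 172.

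The ISRE-like motif was unevenly spread over the roles. It was present in 8 of 10 effector windows, 2 of 3 sensor windows, 3 of 6 windows of other induced genes, 1 of 8 windows of transcription factors (Irf7) and 0 of 4 receptor windows. Of genes above the 2-fold limit in mcPCs, 6 of 16 windows held it, and of the remaining genes 8 of 15. The median log2 ratio was 0.88 for genes with the motif and 1.17 for those without. GAS-like letters were found for Irf1, Irf8, Irf9, Bst2, Oas1a, Ifnar2, Parp14 and Ifitm3, whose log2 ratios run from -2.23 for Irf1 to 4.69 for Bst2.

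**Figure D4:**
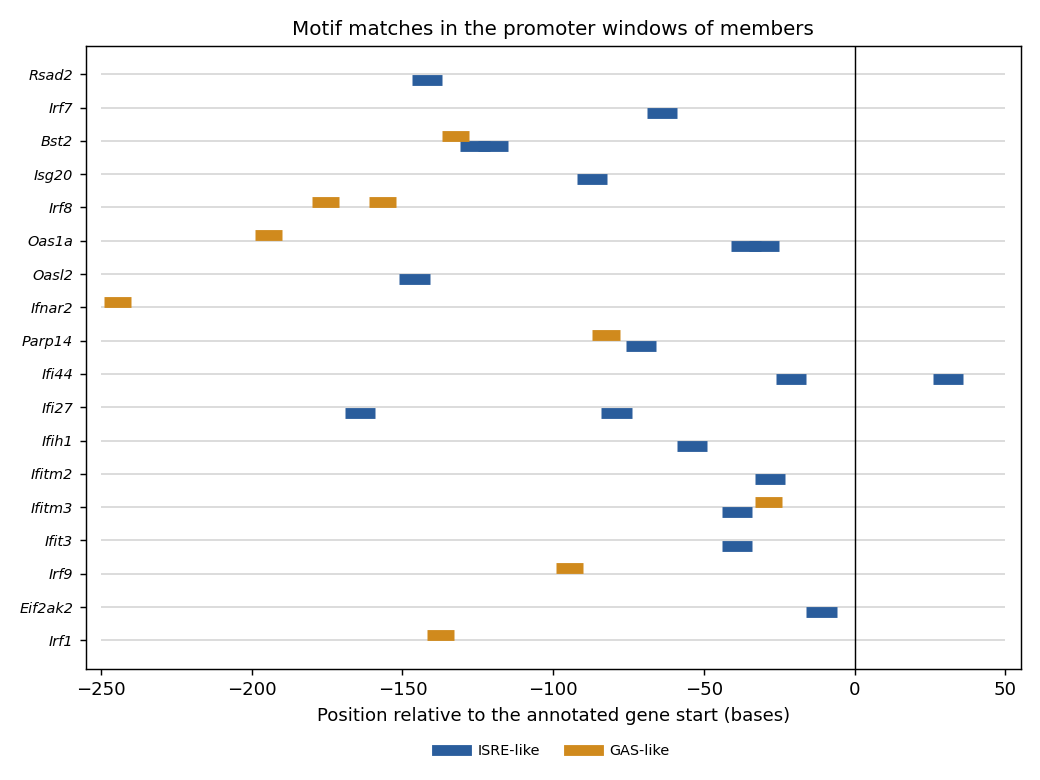
Positions of ISRE-like and GAS-like matches relative to the annotated gene start (bases, start at 0) in the 18 promoter windows that hold one, with genes ordered by log2 ratio from Rsad2 (8.01) to Irf1 (-2.23). Grey lines show the searched window; ISRE-like matches are spread from genes with high ratios to Eif2ak2 (-0.13).

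The rest of the interferon pathway was described with a further list of 82 genes, 62 of which have a row. Of these, 28 (45.2%) were at least 2-fold higher in mcPCs and 6 (9.68%) in VSMCs, beside 21.6% and 13.8% of the table, with a median log2 ratio of 0.65. No row was found for any of the 5 ligands looked for (Ifnb1, Ifng, Ifne, Ifnk, Ifnl3), and the authors kept in the table only what had 1 read or more in every sample. The kinases that carry the receptor signal were close in both cell types, with log2 ratios of 0.42 for Jak2, 0.48 for Tyk2 and 0.49 for Jak1. These 3 genes were lower in mcPCs in TPM. In TPM, Jak1 was the most abundant of them, at 88.9 TPM in VSMCs and 35.8 in mcPCs.

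Further induced genes leaned to mcPCs, with 22 of 42 at least 2-fold higher there and none in VSMCs, beside 21.6% and 13.8% of the table. Those with at least 10 TPM in a cell type were B2m, Tap1, Psmb8, Psmb9 and Psmb10, which serve the class I peptide pathway, and Slfn5, Shisa5, Lgals3bp, Lgals9 and Ifi27l2b. Psmb9, an immunoproteasome subunit, had 90.2 normalized counts in VSMCs and 778 in mcPCs (log2 ratio 3.10), Psmb8 had a log2 ratio of 2.43 and Psmb10 of 2.01. The reads of Psmb8, 166 in VSMCs and 2192 in mcPCs, differ more than its normalized counts, 87.9 and 478. Its ratio thus depends strongly on the normalization. Tap1, a subunit of the peptide transporter, had a log2 ratio of 1.64 and B2m, the light chain of class I molecules, of 1.17. Ifi27l2b, a relative of Ifi27, had 3.95 and 358 normalized counts (log2 ratio 6.18), and Lgals9, which encodes galectin-9, had 57.4 and 1236 (log2 ratio 4.41). Lgals3bp had a log2 ratio of 2.45, Shisa5 of 1.51 and Slfn5 of 1.17. B2m, Slfn5, Shisa5 and Tap1 were lower in mcPCs in TPM.

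The 6 genes at least 2-fold higher in VSMCs, a smaller share than in the table, were 3 of 5 negative regulators, 2 of 10 sensing adaptors and kinases, and Stat3. Socs3, a feedback inhibitor of cytokine receptors, had 8144 normalized counts in VSMCs and 726 in mcPCs (log2 ratio -3.49). Stat3, which acts downstream of interleukin-6-type cytokines, had 14184 and 6040 (log2 ratio -1.23). Log2 ratios were -1.74 for Myd88, the adaptor of most Toll-like receptors, -1.45 for the phosphatase gene Ptpn11 and -1.35 for Pias1, a SUMO ligase that restrains STAT signalling. Mb21d1, which encodes the DNA sensor cGAS, had 151 and 50.9 normalized counts (log2 ratio -1.54), at 3.95 TPM in VSMCs and 0.399 in mcPCs. The remaining inhibitors Socs1 (log2 ratio 2.34) and Ptpn6 (6.67), a phosphatase gene of blood cells, were higher in mcPCs. So were 4 of the 10 adaptors and kinases, Tmem173 (6.23), which encodes the cGAS partner STING, the nucleic acid sensor genes Zbp1 (4.79) and Tlr3 (2.42), and the kinase gene Ikbke (2.11). Mb21d1, Socs1, Ptpn6, Tmem173, Zbp1, Tlr3 and Ikbke fall outside the rule for named genes and were chosen after their values were seen.

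A pair of neighbouring immune lists was set beside these. Of 27 rows of MHC class I and antigen processing genes, 5 genes of which are also in the further list, 22 (81.5%) passed the 2-fold limit in mcPCs and none in VSMCs (median log2 ratio 1.99). These rows belong to 26 genes. Reads of the RT1 genes among them, the rat class I genes, were not whole numbers. Reads may thus be shared between these rows, which are not separate observations. Of 24 NF-kB genes, 8 (33.3%) passed it in mcPCs and 5 (20.8%) in VSMCs (median 0.30), and both shares are above those of the table. The 5 in VSMCs were Il6 (log2 ratio -3.84), Cxcl1 (-2.52), Icam1 (-1.91), Bcl3 (-1.34) and Nfkbiz (-1.07). The 8 in mcPCs were Tnfaip3 (4.74), Traf1 (3.50), Vcam1 (3.29), Nfkbib (1.99), Ptgs2 (1.96), Birc3 (1.93), Ccl2 (1.53) and Nfkbia (1.06), so that cytokine and early response genes were found on both sides. All 13 were named after their values were seen.

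Markers of blood and endothelial cells moved in the same direction as the list. Of 12 blood leukocyte genes with a row, of 30 listed, 11 were at least 2-fold higher in mcPCs, and the median log2 ratio was 7.61. Their summed normalized counts were 326 in VSMCs and 28998 in mcPCs. Ptprc, the pan-leukocyte gene CD45, had 0.0659 TPM in VSMCs and 15.1 in mcPCs, and Coro1a had 0.136 and 50.5 TPM. No row was found for Cd3d, Cd3e, Cd3g and Cd79a, among 18 genes of that list without one. Since a row needs at least 1 read in every sample, VSMC samples included, a missing row does not show absence from mcPCs. Of 12 microglia and macrophage genes of 22 listed, 10 were at least 2-fold higher in mcPCs (median log2 ratio 5.15), with Lyz2 at 131 TPM. P2ry12, Aif1, Itgam and Tyrobp have no row, to which the same limit applies. Of 21 endothelial genes of 24 listed, 16 were at least 2-fold higher in mcPCs (median log2 ratio 4.04). Their summed normalized counts were 39855 in VSMCs and 74434 in mcPCs. The summed TPM, which the erythrocyte share lowers in mcPCs, was 701 in VSMCs and 358 in mcPCs. At least 2-fold higher in mcPCs were also 4 of 5 astrocyte, 6 of 7 oligodendrocyte, 5 of 5 neuron and 5 of 6 fibroblast genes with a row. The same limit was passed by 21.6% of the table and by 65.7% of its genes under 0.8 TPM in VSMCs. The median gene of each of these marker lists, apart from the fibroblast list, was under 0.8 TPM in VSMCs. The pericyte markers, many of them named by the authors from these same data, lay on that side as well. Of these, 7 of 7 were at least 2-fold higher in mcPCs, with a median log2 ratio of 6.17. Irf7, Irf8, Irf5, Irf4, Bst2, Isg20 and Rsad2, among the 21 genes called higher in mcPCs, thus stood on the same side as all these lists. The part of pericytes and of the other cells in their ratios was not tested.

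**Figure D5:**
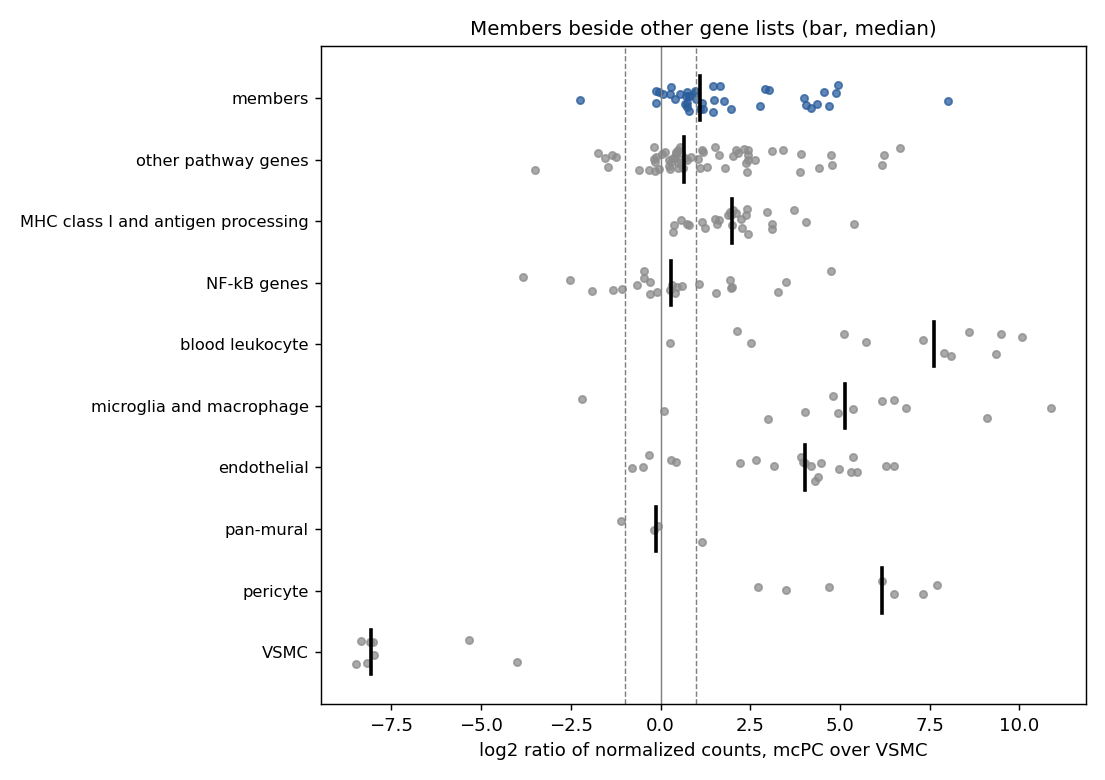
Log2 ratios of normalized counts, mcPC over VSMC, of single genes (points) and their median (bars) for the 41 genes, the other pathway genes, MHC class I and NF-kB genes and marker lists of cell types. Medians are 1.09 for the 41 genes, 1.99 for MHC class I genes and 0.30 for NF-kB genes. Those of marker lists are 7.61 for blood leukocytes, 6.17 for pericytes and 5.15 for microglia and macrophages.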

How the data were processed

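PolyA RNA of 3 VSMC and 3 mcPC samples was sequenced from stranded libraries, in 4 runs per library. Salmon 0.8.0 and build Rnor_6.0 are named in the submitters' processing notes, and the authors summed transcripts per gene with tximport. The deposited TPM values, estimated counts and normalized counts (a signal, counts after the authors' DESeq2 normalization) are the authors' means per cell type. The deposited estimated counts are means per run, multiplied here by 12 runs for reads per cell type, and 69.8% (VSMC) and 71.5% (mcPC) came out whole within 0.01. Depth was 62.0 M and 48.0 M reads per sample. The authors' log2 fold changes, standard errors, p-values and adjusted p-values for mcPCs over VSMCs are in the same table and were not used.

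The log2 ratio was taken from mean normalized counts with a pseudocount of 1, which understates changes of scarce genes, and 2-fold was the limit for a call. Other scales were TPM ratios (pseudocount 0.1), as they stand and relative to the median gene, counts scaled to the same total with or without erythrocyte genes, and pseudocounts 0 and 10. Exact Poisson intervals were computed for TPM and exact Clopper-Pearson intervals for ratios, at 95%, from the reads, for counting error only. Members and lists were chosen with earlier results of these data known. Every member was named. Of the other pathway genes, those at least 2-fold different with at least 10 TPM in a cell type were named, and Jak1, Tyk2 and Jak2. Some genes that the rule or lists hold are not reported here. A planned test on counts per sample could not be made from means. Promoters came from RefSeq (GRCr8). Only the scales of the ratio were tested on simulated counts, with a minimum expected count above the reads of the scarcest genes. Scripts ran in Python 3.11.15 with pandas 2.3.3 and numpy 2.4.6. Intervals came from scipy 1.17.1 and plots from matplotlib 3.10.9.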

Additional observations from a re-analysis of the deposited data

How the results depend on the processing

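The scale decided the balance of the list. With uncorrected TPM ratios, 10 of the 41 genes passed the 2-fold limit in mcPCs and 16 in VSMCs, the median log2 ratio was -0.70, and log2 ratios turned negative for all genes from Oasl2 down to Irf3 in the order of their ratios, among them, of those called higher in mcPCs, Dhx58 (-0.33), Ifit2 (-0.18), Ifnar2 (-0.62), Ifngr1 (-0.34), Ifngr2 (-0.70), Oasl (-0.53), Oasl2 (-0.042) and Trim25 (-0.26). The other pathway genes then gave 11 higher in mcPCs, 32 in VSMCs and a median of -1.09. On that scale the median gene of the table was at -1.72, with 66.3% of mcPC TPM in erythrocyte genes, and relative to that gene the count in mcPCs was again 21. Counts scaled to the same total, where the median gene was at -0.53, gave 15 genes and medians of 0.52 for the list and 0.10 for the other pathway genes. Without erythrocyte genes, where it was at 0.18, 24 genes were counted. A limit of 1.5-fold gave 32 genes higher in mcPCs and a limit of 4-fold gave 12, and at 4-fold 1 other pathway gene was higher in VSMCs. Pseudocounts of 0 and 10 both gave 21, a minimum of 0.8 TPM in VSMCs 15, and a minimum of 1 TPM in either cell type 20. Irf1 was the only gene of the list at least 2-fold higher in VSMCs under each setting apart from uncorrected TPM ratios. No paired analysis was possible because the values are means per cell type, and no replicate could be left out in turn for the same reason. Reads of 18 of the 41 genes were not whole numbers, so that reads shared with other transcripts limit the IFIT, IFITM, OAS and Mx values, and depth limits Oas1a and Irf4 most.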
